A study of Homo sapiens with 12 samples.

Results

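The genes described here are 10 negative feedback regulators of ERK signalling: the dual-specificity phosphatases DUSP1, DUSP4, DUSP5 and DUSP6, the Sprouty genes SPRY1, SPRY2 and SPRY4, the Sprouty-related genes SPRED1 and SPRED2, and IL17RD. They were taken by gene symbol from the array platform's annotation, which gives them 19 of the 47224 probes on the array and 10 of its 20045 named genes. A probe was kept where its detection p-value, which sets its signal against that of negative control beads, was under 0.05 on at least 3 arrays. Of the 19 probes 14 were kept, and 9 of the 10 genes were tested. DUSP4 was the exception, since neither of its probes was detected on any of the 12 arrays.

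The cells were MCF10A, a line of human breast epithelium that does not form tumours, and their total RNA was hybridized to 12 Illumina bead arrays, 3 in each of 4 groups. The groups are titled Cas/ErbB2, ErbB2, Cas and Ctr MCF10A.B2, the last being the control, and all 4 are described as modified MCF10A cells. Cas stands here for p130Cas, an adaptor protein of focal adhesions encoded by BCAR1, and ErbB2 is a member of the EGF receptor family of tyrosine kinases. In published work MCF10A.B2 is the name of MCF10A cells carrying a chimeric ErbB2 receptor that a synthetic dimerizing ligand activates, but the labels give neither this, nor a ligand, nor how Cas or ErbB2 was raised, nor whether a line is a clone.

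Receptor tyrosine kinases signal through RAS, RAF and MEK to the kinase ERK, and ERK in turn induces genes whose products damp the pathway. Dual-specificity phosphatases remove the activating phosphates from MAP kinases in the nucleus or the cytoplasm. Sprouty and SPRED proteins act further up, between the receptor and RAF, and IL17RD, also called SEF, is a membrane protein that restrains FGF receptor and ERK signalling. In mammary epithelial cells the EGF receptor family is a main source of ERK activity, and transcripts of these feedback genes are widely read as a record of it.

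Signals were background-corrected, quantile normalized and log2 transformed. The brightest kept probe stood for each gene, which gave 16171 items for testing: 11205 named genes and 4966 unnamed probes. A change is the log2 difference of 2 group means, given with its standard error from a limma fit over the 4 groups (n = 3 arrays in each). P-values were adjusted by Benjamini-Hochberg over all 16171 items. An item is called at adjusted p under 0.05. Whether the 3 samples of a group are separate cultures is not in the labels, and the p-values measure the spread between these samples alone, which may be technical. An exact permutation test of 3 arrays against 3 cannot give a p below 0.1, and precision is limited by this number of arrays. In bulk RNA, fewer cells making a transcript and less transcript per cell cannot be told apart.

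The control arrays stood apart from the other 9. Median raw signal was 547.1 to 622.8 on Cas/ErbB2, 477.5 to 576.8 on ErbB2 and 510.2 to 614.5 on Cas arrays, against 170.9 to 202.4 on control arrays, and 12864 to 15984 probes were detected on the 9 arrays against 19076 to 19416 on control arrays. In their names control replicates 1 and 2 carry hybridization number III and control replicate 3 II, while the other arrays carry none, so hybridization and group cannot be told apart in any comparison with control. Cas/ErbB2 replicate 3 had the highest mean raw signal of the 12 arrays (2095, against 1274 and 1247 on the other Cas/ErbB2 arrays). Of 11 epithelial markers 8 had a named probe and all 8 were detected on all 12 arrays. Of 6 fibroblast markers COL3A1 and PDGFRB were not detected on any array, COL1A1 and DCN were detected on 11 arrays each and none was detected on all 12. The summed signal of the 6 was 1240 to 1480 in Cas/ErbB2, 1440 to 2080 in ErbB2, 2110 to 2410 in Cas and 3010 to 3830 in control cells. In the same order the log2 means were 8.37, 9.59, 10.18 and 11.32 for DCN and 8.15, 8.61, 8.63 and 8.49 for COL1A1. For immune markers, with CD14 and CD68 detected on all 12 arrays and PTPRC and CD3E not detected on any array, the sums were 6610 to 9030, 4440 to 4890, 3520 to 4650 and 3160 to 4000 in the same order of groups. The log2 means were 12.66, 11.87, 11.32 and 11.46 for CD68 and 9.76, 9.44, 10.18 and 9.09 for CD14. Among endothelial markers PECAM1 was detected on all 12 arrays and VWF, CDH5 and KDR were not detected on any. The part of these markers in the results was not tested.

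The promoters of 3 members are shown because SPRY4 and DUSP6 had the largest differences from control and DUSP1 was the member called lower. Each is the 250 bases before an annotated start site, from RefSeq on build GRCh38.p14, 5′ to 3′ on the minus strand on which all 3 genes lie. For SPRY4 the start site used, 142324247, lies inside the annotated gene span, which ends at 142325021. For DUSP6 and DUSP1 it is the outer end of the span. Capitals mark a match to the cyclic AMP response element.
DUSP6, chr12:89352502-89352751: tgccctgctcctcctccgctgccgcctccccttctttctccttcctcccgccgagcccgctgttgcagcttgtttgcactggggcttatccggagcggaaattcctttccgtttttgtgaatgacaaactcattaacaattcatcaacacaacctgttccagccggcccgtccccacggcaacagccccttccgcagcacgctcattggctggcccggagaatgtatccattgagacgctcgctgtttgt
SPRY4, chr5:142324248-142324497: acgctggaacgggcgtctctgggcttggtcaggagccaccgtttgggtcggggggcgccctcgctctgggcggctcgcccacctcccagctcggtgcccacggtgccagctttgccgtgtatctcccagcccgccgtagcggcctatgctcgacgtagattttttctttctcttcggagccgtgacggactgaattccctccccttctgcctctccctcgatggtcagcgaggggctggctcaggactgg
DUSP1, chr5:172771196-172771445: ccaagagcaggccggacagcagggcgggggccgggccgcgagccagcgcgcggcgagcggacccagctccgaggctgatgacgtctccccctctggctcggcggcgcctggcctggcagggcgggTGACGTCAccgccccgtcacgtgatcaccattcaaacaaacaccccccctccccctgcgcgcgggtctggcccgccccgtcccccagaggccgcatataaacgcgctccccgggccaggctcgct

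Short motifs of factors known to act on growth factor response genes were searched on both strands in such windows for 8 members, which have 13 start sites. DUSP4 was left out of the search, and no window was used for DUSP5. The cyclic AMP response element, TGACGTCA, was found once, in the DUSP1 window, beginning 125 bases before the start. The ETS letters CCGGAAG were found once, 67 bases before the second start of SPRY1. The AP-1 letters TGANTCA were found in 0 of the 13 windows, and no stretch matched more than 1 motif. Over 35116 windows of the same length in RefSeq, 8.52% held the ETS letters, 6.57% the AP-1 letters and 1.65% the cyclic AMP letters. A match is a description of letters, and these windows do not cover enhancers or introns.

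SPRY4, DUSP6, DUSP5, SPRY2 and SPRED1 were higher in both Cas/ErbB2 and ErbB2 cells than in control, although under median scaling over all probes, which moves the median of all items to -1.61 in Cas/ErbB2 and -1.45 in ErbB2 cells, only SPRY4 and DUSP6 of these 5 kept this sign in both. Relative to that moved median all 5 kept it. Their means were highest in Cas/ErbB2 cells. DUSP1 was lower than control in each of the other groups. Under median scaling over all probes 92.8% to 93.7% of all calls were lower, so its lower sign there carries little. Relative to the moved median it was lower in each group as well. Under median scaling over the probes detected on every array it also stayed lower. In Cas/ErbB2 cells that difference was -0.26 and did not pass in the limma fit (adjusted p = 0.106). SPRY1, SPRED2 and IL17RD did not pass in any of the comparisons.

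DUSP6 is a cytoplasmic phosphatase specific for ERK and one of the most direct transcriptional readouts of ERK activity. It lies on chromosome 12 (GRCh38.p14, 89347235 to 89352501). Its brighter probe, ILMN_2396020, read 13.89, 13.74 and 13.62 on the log2 scale in Cas/ErbB2 cells, 13.29, 13.49 and 13.53 in ErbB2 cells, 12.76, 12.99 and 12.96 in Cas cells and 11.31, 11.14 and 11.38 in control cells. No array of one group reached into another group, and the step between Cas and control was the widest in this order. DUSP6 was higher than control by 2.48 ± 0.13 in Cas/ErbB2 (adjusted p = 1.56e-07), by 2.16 ± 0.13 in ErbB2 (adjusted p = 9.51e-07) and by 1.63 ± 0.13 in Cas cells (adjusted p = 8.1e-06). These are 5.57-fold, 4.48-fold and 3.09-fold. Among these 3 groups the differences were smaller: 0.85 ± 0.13 for Cas/ErbB2 against Cas passed (adjusted p = 0.00118, and 0.0817 under median scaling over all probes), whereas 0.31 ± 0.13 for Cas/ErbB2 against ErbB2 (adjusted p = 0.249) and 0.54 for ErbB2 against Cas (adjusted p = 0.0766) did not.

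DUSP5 encodes a nuclear phosphatase that dephosphorylates ERK and holds it in the nucleus (chromosome 10, 110497907 to 110511533). Its probe read 11.38, 11.36 and 11.20 in Cas/ErbB2 cells, 10.31, 10.27 and 10.54 in ErbB2 cells, 9.97, 9.75 and 9.45 in Cas cells and 9.13, 8.84 and 9.10 in control cells. The 4 groups did not overlap and formed a ladder with Cas/ErbB2 at the top. The difference from control was 2.29 ± 0.15 in Cas/ErbB2 (4.88-fold, adjusted p = 7.57e-07), 1.35 ± 0.15 in ErbB2 (2.55-fold, adjusted p = 4.33e-05) and 0.70 ± 0.15 in Cas cells (1.62-fold, adjusted p = 0.00547). Cas/ErbB2 was above ErbB2 by 0.94 ± 0.15 (adjusted p = 0.00733) and above Cas by 1.59 ± 0.15 (adjusted p = 3.42e-05), and ErbB2 against Cas, at 0.65, did not pass (adjusted p = 0.0648).

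DUSP1, the founding member of the family, is an immediate-early nuclear phosphatase that acts on p38 and JNK as well as ERK (chromosome 5, 172768096 to 172771195). Its differences from control had the opposite sign to those of DUSP6 and DUSP5, while among the other groups Cas/ErbB2 again had the highest mean. Its signal was 13.22, 13.17 and 13.30 in Cas/ErbB2 cells, 12.93, 12.85 and 12.93 in ErbB2 cells, 13.11, 13.03 and 13.14 in Cas cells and 13.67, 13.65 and 13.55 in control cells. Every control array was above the other 9 arrays. DUSP1 was lower than control by -0.39 ± 0.11 in Cas/ErbB2 (0.763-fold, adjusted p = 0.0114), by -0.72 ± 0.11 in ErbB2 (0.607-fold, adjusted p = 0.000355) and by -0.53 ± 0.11 in Cas cells (0.694-fold, adjusted p = 0.00345). When arrays were instead scaled to the median of the probes detected on all 12 arrays, the Cas/ErbB2 difference was -0.26 and did not pass (adjusted p = 0.106), with the median of all items at 0.28. Cas/ErbB2 against ErbB2 gave 0.33 ± 0.11 (adjusted p = 0.138) and the other differences among these 3 groups were smaller in size.

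DUSP4, a nuclear phosphatase for ERK and JNK on chromosome 8, read between 6.31 and 7.34 over its probes and arrays, always without detection. Its level in these cells is therefore bounded by the background only. Without a detection filter its changes ran between -0.21 and 0.26 over the comparisons, with adjusted p between 0.331 and 1.

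**Figure D1:**
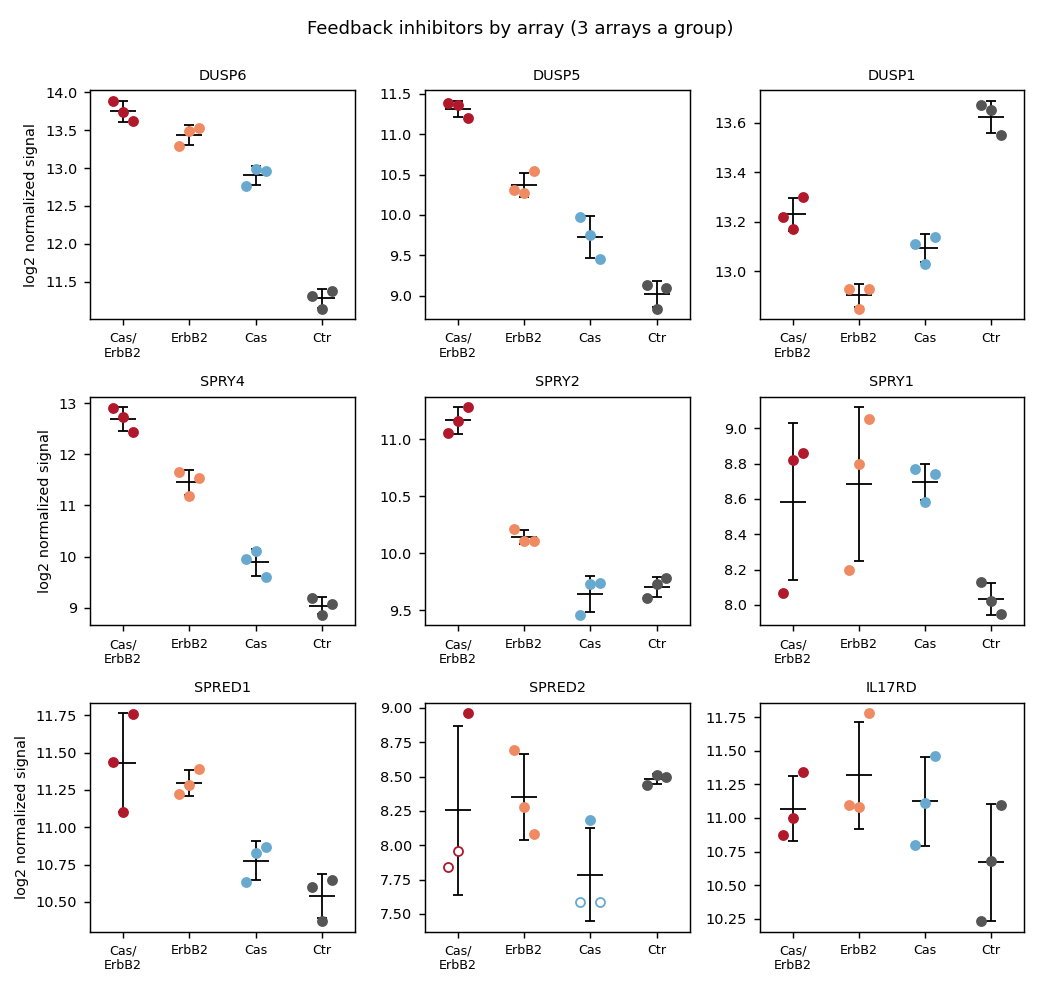
Normalized signal (log2) of the 9 tested members on each of the 12 arrays, with groups in the order Cas/ErbB2, ErbB2, Cas and Ctr MCF10A.B2 in each panel. Points are arrays, horizontal lines are group means with the SD as error bars (n = 3), and open circles are arrays without detection, which occur for SPRED2 only. SPRY4, DUSP6 and DUSP5 step down from Cas/ErbB2 to control without overlap between groups, and the DUSP1 control arrays lie above all others. Signals are quantile normalized, and under median scaling over all probes the Cas means of DUSP6, DUSP5 and SPRY4 fall below the control means.

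SPRY4 belongs to the Sprouty family, which blocks growth factor signalling between the receptor and RAS or RAF (chromosome 5, 142310430 to 142325021). Of all members it had the widest range. Probe ILMN_2086105 read 12.90, 12.73 and 12.44 in Cas/ErbB2 cells, 11.65, 11.18 and 11.54 in ErbB2 cells, 9.95, 10.11 and 9.60 in Cas cells and 9.20, 8.86 and 9.07 in control cells. Its groups did not overlap, and each of the 3 steps in the order passed on its own. SPRY4 was 12.5-fold above control in Cas/ErbB2 (log2 3.64 ± 0.18, adjusted p = 9.78e-08), 5.32-fold in ErbB2 (log2 2.41 ± 0.18, adjusted p = 3.64e-06) and 1.79-fold in Cas cells (log2 0.84 ± 0.18, adjusted p = 0.0049). Cas/ErbB2 exceeded ErbB2 by 1.23 ± 0.18 (adjusted p = 0.00438) and Cas by 2.80 ± 0.18 (adjusted p = 1.61e-06), and ErbB2 exceeded Cas by 1.57 ± 0.18 (adjusted p = 0.000824).

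SPRY2, which binds GRB2 and the ubiquitin ligase CBL, followed another pattern (chromosome 13, 80335976 to 80341126). It read 11.05, 11.16 and 11.28 in Cas/ErbB2 cells, 10.21, 10.11 and 10.11 in ErbB2 cells, 9.46, 9.73 and 9.74 in Cas cells and 9.61, 9.73 and 9.78 in control cells. Cas and control arrays overlapped, ErbB2 arrays lay just above both, and Cas/ErbB2 arrays lay well above all others. The difference from control was 1.46 ± 0.12 in Cas/ErbB2 (2.74-fold, adjusted p = 3.04e-06), 0.44 ± 0.12 in ErbB2 (1.35-fold, adjusted p = 0.019) and -0.06 ± 0.12 in Cas cells (adjusted p = 0.743). The ErbB2 call is a marginal one, since it missed the threshold without ErbB2 replicate 1 (adjusted p = 0.06), control replicate 1 (0.065) or control replicate 2 (0.0504). Cas/ErbB2 was above ErbB2 by 1.02 ± 0.12 (adjusted p = 0.00178) and above Cas by 1.52 ± 0.12 (adjusted p = 8.53e-06), while ErbB2 against Cas gave 0.50 (adjusted p = 0.0788).

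SPRY1, a further family member (chromosome 4, 123396795 to 123403760), was dim. Its brighter probe, ILMN_2329914, read 8.07, 8.82 and 8.86 in Cas/ErbB2 cells, 8.20, 8.80 and 9.05 in ErbB2 cells, 8.77, 8.58 and 8.74 in Cas cells and 8.13, 8.02 and 7.95 in control cells. Replicate 1 of Cas/ErbB2 and of ErbB2 read close to control. The differences from control were 0.55 ± 0.23 in Cas/ErbB2 (adjusted p = 0.0731), 0.65 ± 0.23 in ErbB2 (adjusted p = 0.0535) and 0.66 ± 0.23 in Cas cells (adjusted p = 0.0515), and all 3 passed without Cas/ErbB2 replicate 1 (adjusted p = 0.0115, 0.0223 and 0.0213 in the same order). Its other probe detected on all 12 arrays, ILMN_1691860, read 8.71, 8.65 and 8.52 in Cas/ErbB2, 8.51, 8.70 and 8.73 in ErbB2, 8.45, 8.73 and 8.46 in Cas and 7.82, 7.75 and 7.65 in control cells. With each probe taken as an item of its own, that probe was higher than control by 0.88 (adjusted p = 0.000159), 0.90 (adjusted p = 0.000198) and 0.81 (adjusted p = 0.000518) in Cas/ErbB2, ErbB2 and Cas cells. Its interaction, the Cas difference in groups titled with ErbB2 minus that in the others, was -0.83 ± 0.18 (adjusted p = 0.00803). Of all single probes 15.9% were called for the interaction. Cas/ErbB2 against ErbB2 gave -0.02 and Cas against control 0.81 for this probe. The term thus lies in the comparison with control, where hybridization and group cannot be told apart.

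SPRED1 recruits neurofibromin to the membrane, where it switches RAS off (chromosome 15, 38252836 to 38357249). Its probe read 11.44, 11.10 and 11.76 in Cas/ErbB2 cells, 11.22, 11.28 and 11.39 in ErbB2 cells, 10.63, 10.83 and 10.87 in Cas cells and 10.60, 10.37 and 10.65 in control cells. Arrays of the groups titled with ErbB2 lay above those of the other groups, and within each of these pairs the groups overlapped. SPRED1 was higher than control by 0.89 ± 0.16 in Cas/ErbB2 (1.86-fold, adjusted p = 0.000994) and by 0.76 ± 0.16 in ErbB2 (1.69-fold, adjusted p = 0.00458), and the Cas difference of 0.24 ± 0.16 did not pass (adjusted p = 0.297). Cas/ErbB2 exceeded Cas by 0.65 ± 0.16 (adjusted p = 0.0231). That call was lost without Cas replicate 1 (adjusted p = 0.0948), Cas replicate 2 (0.0556) or Cas/ErbB2 replicate 1 (0.0574), in a fit of these 6 arrays alone (0.116) and under median scaling over all probes (0.597).

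SPRED2, its paralog (chromosome 2, 65307175 to 65432599), was near the limit of detection. It read 7.84, 7.96 and 8.96 in Cas/ErbB2 cells with 1 of 3 arrays detected, 8.69, 8.28 and 8.08 in ErbB2 cells, 7.59, 8.18 and 7.59 in Cas cells with 1 of 3 detected, and 8.44, 8.51 and 8.50 in control cells. Only Cas cells lay wholly below control. No comparison passed, with -0.23 ± 0.27 (adjusted p = 0.508) in Cas/ErbB2, -0.13 ± 0.27 (adjusted p = 0.741) in ErbB2 and -0.70 ± 0.27 (adjusted p = 0.075) in Cas cells against control. Without Cas/ErbB2 replicate 3 the Cas/ErbB2 value was -0.59 (adjusted p = 0.0348) and the Cas value passed as well (adjusted p = 0.0135). Replicate 3 was the only Cas/ErbB2 array with SPRED2 detected, so that Cas/ErbB2 value sets signals without detection against control.

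IL17RD (chromosome 3, 57089982 to 57170317) read 10.87, 11 and 11.34 in Cas/ErbB2 cells, 11.10, 11.08 and 11.78 in ErbB2 cells, 10.80, 11.11 and 11.46 in Cas cells and 10.23, 10.68 and 11.10 in control cells. Its groups overlapped, and replicates of a group were up to 0.87 apart. Against control it gave 0.40 ± 0.26 in Cas/ErbB2 (adjusted p = 0.223), 0.65 ± 0.26 in ErbB2 (adjusted p = 0.0741) and 0.45 ± 0.26 in Cas cells (adjusted p = 0.208). Its SE was larger than that of any DUSP gene tested. The ErbB2 difference was 0.87 and passed without control replicate 3 (adjusted p = 0.0368).

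Against control, 6 of the 9 tested members were called in Cas/ErbB2 cells, 5 higher and 1 lower, where 45.5% of the items passed in either direction (21% up and 24.5% down). In ErbB2 cells 6 were called, 5 higher and 1 lower, against 30.6% of all items (13.8% up and 16.8% down). In Cas cells 4 were called, DUSP6, SPRY4 and DUSP5 higher and DUSP1 lower, against 29.3% of all items (13.3% up and 16% down). The median change over the 9 members was 0.89 in Cas/ErbB2, 0.65 in ErbB2 and 0.45 in Cas cells, against 0, 0.02 and 0 over all items. Groups did not overlap for 6, 7 and 6 of the 9 members in these comparisons, against 53.5%, 51.2% and 50.4% of all items. The 3 comparisons share the control arrays. Without Cas/ErbB2 replicate 3 the Cas/ErbB2 differences were 3.77 for SPRY4, 2.55 for DUSP6, 2.34 for DUSP5, 1.40 for SPRY2, 0.73 for SPRED1 and -0.43 for DUSP1, and all 6 passed. Under median scaling over all probes the median of all items moved to -1.61 in Cas/ErbB2, -1.45 in ErbB2 and -1.66 in Cas cells, and 4 of 6, 3 of 6 and 1 of 4 called members kept their sign, while all of them kept it relative to those medians. The share of lower ones among all called items was 53.9%, 54.9% and 54.6% with quantile normalization, 92.8%, 93.7% and 93.5% under median scaling over all probes, and 27.7%, 26.2% and 23% under median scaling over the probes detected on all 12 arrays.

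**Figure D2:**
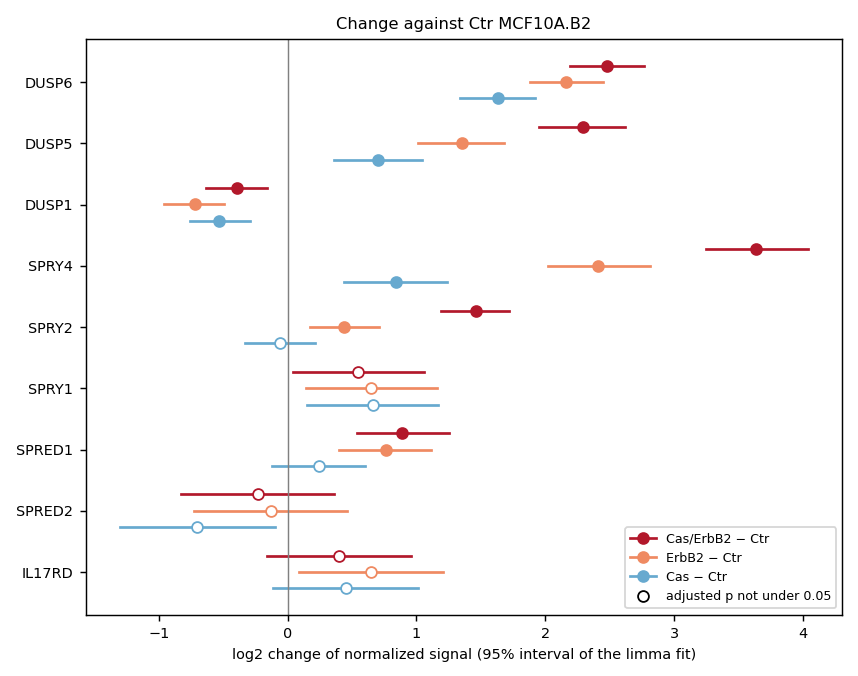
Difference from Ctr MCF10A.B2 in normalized signal (log2) of the 9 tested members in Cas/ErbB2, ErbB2 and Cas cells. Bars are 95% intervals of the limma fit and filled symbols have adjusted p under 0.05. SPRY4 is farthest to the right in Cas/ErbB2 cells at 3.64, and DUSP1 is left of 0 in all 3 groups. Under median scaling over all probes the signs of SPRED1, SPRY2, SPRY1 and IL17RD turn in Cas/ErbB2 cells, those of DUSP5, SPRED1, SPRY2, SPRY1 and IL17RD in ErbB2 cells and those of DUSP5, DUSP6, SPRY4, SPRED1, SPRY1 and IL17RD in Cas cells.

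In the comparisons among Cas/ErbB2, ErbB2 and Cas cells the control arrays are in neither group, although they enter the normalization and the spread of the fit. Cas/ErbB2 against ErbB2 asks what Cas goes with in the groups titled with ErbB2, and 3 of 9 members were called, all higher: SPRY4, SPRY2 and DUSP5. The share of all items that passed was 2.75%, with 1.21% higher and 1.55% lower, and 1.17% when the control arrays were left out of the fit, where SPRY4, SPRY2 and DUSP5 were again the members called. That share was 10.7% without Cas/ErbB2 replicate 3, and 1.39%, 1.32%, 1.18%, 1.11% and 1.51% without Cas/ErbB2 replicates 1 and 2 and ErbB2 replicates 1, 2 and 3, with 3 members called each time. The members' median was 0.31, against -0.02 over all items, and 5 of 9 did not overlap, against 17.5% of all items. In a fit of these 6 arrays alone, which called 0.26% of all items, SPRY2 was the only member called, with DUSP5 at adjusted p = 0.0708 and SPRY4 at 0.067. None of the 3 passed under median scaling over all probes, although each stayed higher (SPRY4 1.04, SPRY2 0.82 and DUSP5 0.74).

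Cas/ErbB2 against Cas, which asks what ErbB2 goes with in the groups titled with Cas, had 5 members called, all higher: SPRY4, DUSP5, SPRY2, DUSP6 and SPRED1. The share of all items that passed was 10.6%, with 4.95% higher and 5.7% lower. The members' median was 0.65, against -0.02 over all items, and 6 of 9 did not overlap, against 25.1% of all items. ErbB2 against Cas, a contrast of the groups titled with 1 of the 2 names, had SPRY4 alone called, higher in ErbB2, against 1.56% of all items called, 1.09% higher and 0.464% lower. That share was 0.761% to 0.959% without any 1 of the ErbB2 arrays or Cas replicates 1 or 3, and 2.5% without Cas/ErbB2 replicate 3. The members' median there was 0.52, against 0 over all items, and 6 of 9 members did not overlap between these groups, against 19.1% of all items. Without Cas/ErbB2 replicate 3, which is not part of the contrast but of the fit, DUSP5, DUSP6 and SPRY2 passed too, with adjusted p of 0.0483, 0.0457 and 0.0474.

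**Figure D3:**
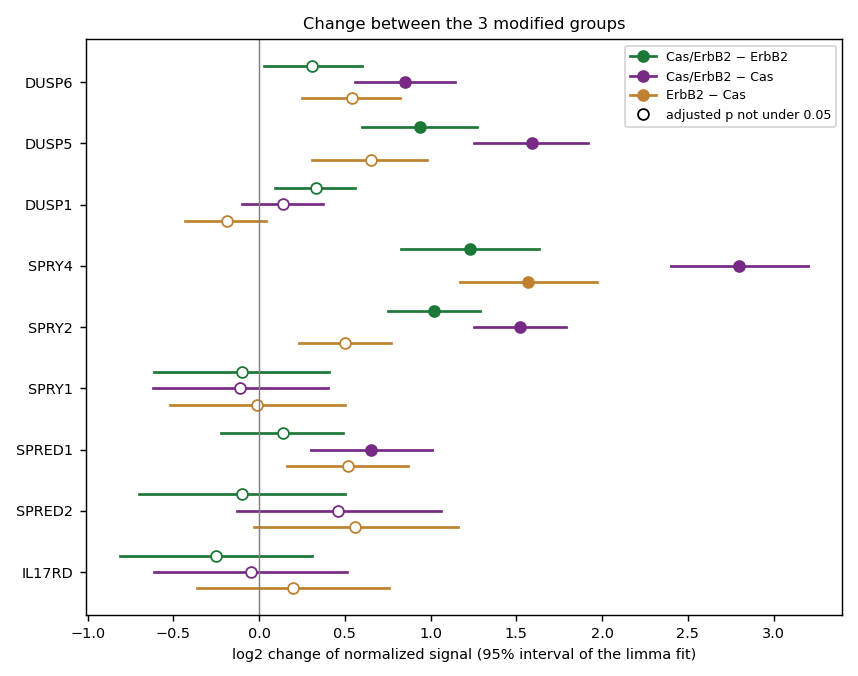
Difference in normalized signal (log2) of the 9 tested members for Cas/ErbB2 against ErbB2, Cas/ErbB2 against Cas and ErbB2 against Cas. Bars are 95% intervals of the limma fit and filled symbols have adjusted p under 0.05. SPRY4 is the only member filled in all 3 comparisons, and its sign is the same under the 2 median scalings.

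The interaction is the difference that goes with Cas in the groups titled with ErbB2 minus that in the groups not titled with ErbB2. With and without ErbB2 refer here to the titles, since the labels do not say that any group lacks it. A value of 0 means that Cas and ErbB2 added on the log2 scale. It was called for 3 of 9 members, 2 higher and 1 lower, against 14.2% of all items (8.95% higher and 5.21% lower; 36.8% of calls were lower, against 3.38% and 78.4% under these 2 median scalings), and the control arrays take part in it. The DUSP6 sign turned to 0.26 under median scaling over all probes, where the median of all items was 1.42, and those of SPRY2 and DUSP1 did not turn. For SPRY2 it was 1.08 ± 0.18 (adjusted p = 0.00145): the Cas difference was 1.02 with ErbB2 and -0.06 without. For DUSP1 it was 0.86 ± 0.15 (adjusted p = 0.00267), with 0.33 and -0.53 as the differences with and without ErbB2. For DUSP6 it was -1.31 ± 0.19 (adjusted p = 0.000637), with 0.31 and 1.63. The interaction of SPRY4, 0.39, and that of DUSP5, 0.24, did not pass (adjusted p = 0.358 and 0.52).

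The DUSP6 interaction depended on the probe. Single probes were set against all 19777 kept probes, of which 46.4% were called in Cas/ErbB2, 31.8% in ErbB2 and 30.8% in Cas cells against control, 2.71% in Cas/ErbB2 against ErbB2, 10.4% in Cas/ErbB2 against Cas, 1.38% in ErbB2 against Cas and 15.9% for the interaction. The dimmer DUSP6 probe, ILMN_1677466, read 10.69, 10.66 and 10.23 in Cas/ErbB2 cells, 9.73, 9.92 and 9.91 in ErbB2 cells, 8.41, 9.18 and 9.08 in Cas cells and 8.19, 8.07 and 8.16 in control cells. The order of the groups was that of the brighter probe, but the step from control to Cas was narrower. With probes as items this probe was higher than control by 2.39 in Cas/ErbB2 (adjusted p = 2.37e-06), by 1.71 in ErbB2 (adjusted p = 3.8e-05) and by 0.75 in Cas cells (adjusted p = 0.013). Its interaction was -0.07 (adjusted p = 0.895). ErbB2 against Cas passed for it, at 0.96 (adjusted p = 0.0327). The platform annotation pairs the brighter and the dimmer probe with different RefSeq transcripts of DUSP6.

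The second SPRY4 probe was close to background in Cas and control cells. Probe ILMN_1797596 read 10.16, 9.94 and 9.90 in Cas/ErbB2 cells, 9.06, 8.34 and 9.10 in ErbB2 cells, 7.55, 6.94 and 7.11 in Cas cells with no array detected, and 7.66, 7.53 and 7.22 in control cells with 2 of 3 detected. With no Cas array detected, its difference between Cas and control and its interaction cannot be read. Cas/ErbB2 was 2.53 above control (adjusted p = 3.29e-06) and 1.17 above ErbB2 (adjusted p = 0.0165), and at least 4.45-fold above Cas (adjusted p = 7.41e-06). That bound sets the Cas/ErbB2 mean against the mean over the Cas arrays of the lowest signal detected there, or the probe's own signal where that was higher. Probe ILMN_1688811 was detected on 3 arrays, 2 of them Cas/ErbB2 and 1 Cas, and ILMN_1741168 on 1 control array. The IL17RD probes ILMN_1728663 and ILMN_2294542 were not detected on any array, and the SPRY1 probe ILMN_1769280 was detected on 3, 1 of them ErbB2 and 2 control.

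**Figure D4:**
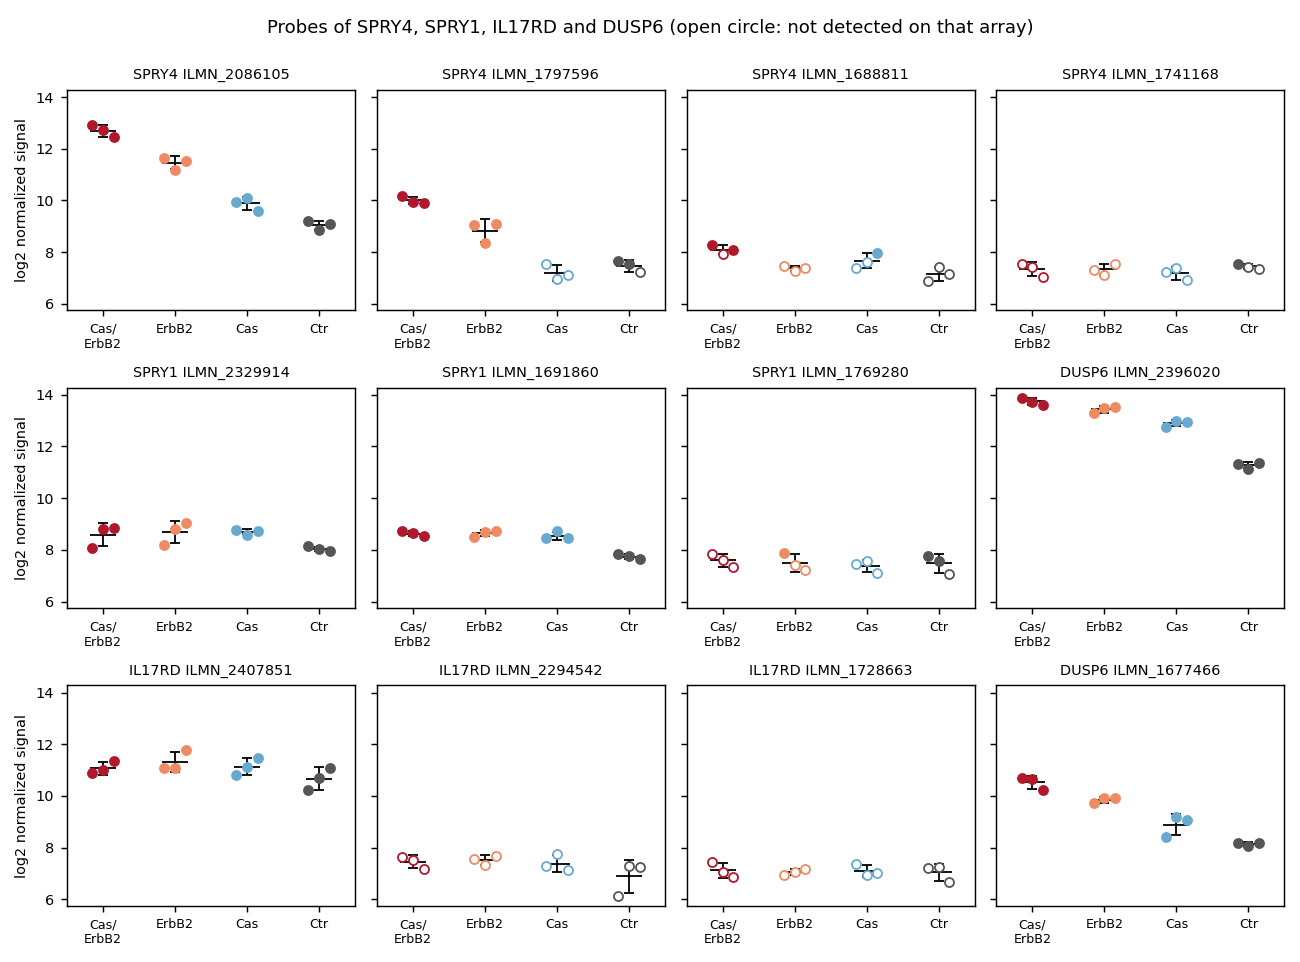
Normalized signal (log2) of every probe of SPRY4, SPRY1, IL17RD and DUSP6 on the 12 arrays, in the order Cas/ErbB2, ErbB2, Cas and Ctr MCF10A.B2. Each point is an array, lines and error bars are group means and SD (n = 3), and open circles are arrays without detection. The Cas and control points of ILMN_2086105 are apart, those of ILMN_1797596 are at or near background, and 2 of the 3 IL17RD probes have open circles throughout.

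Other lists from the same pathway give the setting. They were chosen with earlier results of these data known, so their counts are a description and no independent support. Of 20 other ERK feedback and MAP kinase phosphatase genes 15 were tested, and calls went both ways, as they did over all items: 6 were higher and 5 lower than control in Cas/ErbB2, 3 and 3 in ErbB2, and 2 and 2 in Cas cells. Their median change was 0.01, 0.08 and -0.02, and under median scaling over all probes 11 or 12 of the 15 were lower and 1 was higher in each group, at medians 0.49, 0.28 and 0.29 above that of all items. TRIB1, a pseudokinase that binds MEK1, was 2.29 above control in Cas/ErbB2 (adjusted p = 4.1e-07) and 1.37 above it in ErbB2 cells (adjusted p = 1.91e-05). DUSP7, a cytoplasmic ERK phosphatase close to DUSP6, was 1.18 (adjusted p = 0.000544) and 1.17 above control (adjusted p = 0.000904) in these groups, whereas SPSB1 was -1.29 (adjusted p = 0.000633) and -1.08 from control (adjusted p = 0.00328). In Cas cells the named genes were CBL, a ubiquitin ligase of activated receptors, at -0.63 (adjusted p = 0.0224), SPRED3, called higher, and RASA2, a RAS GTPase-activating protein called lower. SPRED3 was detected on 1 of 3 Cas arrays and no control array, so its difference there lies within background. RASA2 read 7 in Cas cells and 7.67 in control, and was detected on the 3 control arrays alone. Both genes thus passed the detection filter only through groups where they were higher. Their calls are among those counted above in each of the 3 groups. In Cas/ErbB2 against ErbB2 2 were called: TRIB1, higher by 0.93 (adjusted p = 0.00465), and ERRFI1, which binds and inhibits EGF receptor family kinases, higher by 0.67 (adjusted p = 0.0169). In Cas/ErbB2 against Cas 2 were higher and 2 lower, and in ErbB2 against Cas TRIB1 alone was called, at 1.51 (adjusted p = 0.000154).

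Of 22 genes from the receptor to ERK 15 were tested. In Cas/ErbB2 2 were higher and 4 lower than control, in ErbB2 1 and 3, and in Cas cells 0 and 2 (1 and 3 at an unadjusted p under 0.05), with medians of 0.03, 0.11 and -0.04. Under median scaling over all probes 15, 14 and 14 were lower, with medians that differed from that of all items by 0.06, -0.04 and -0.13. MAP2K1, the ERK kinase MEK1, was 1.20 above control in Cas/ErbB2 (adjusted p = 8.35e-06), 0.67 above it in ErbB2 cells (adjusted p = 0.00114) and 0.53 higher in Cas/ErbB2 than in ErbB2 cells (adjusted p = 0.0356). EGFR was at -1.20 (adjusted p = 1.59e-05), -1.09 (adjusted p = 5.3e-05) and -1.03 (adjusted p = 9.19e-05) from control in Cas/ErbB2, ErbB2 and Cas cells. SOS1, which loads RAS with GTP, was detected on all 3 control arrays and on none of the other 9, with means of 6.42, 6.34 and 6.42 in Cas/ErbB2, ErbB2 and Cas against 7.6 in control cells. SOS1 thus passed the detection filter through the control arrays alone. Its lower calls, counted above in each of the 3 groups, set signals within background against control. In Cas/ErbB2 against Cas 2 were higher and 1 lower: MAP2K1 by 0.93 (adjusted p = 0.00029) and the adaptor SHC1 by 0.69 (adjusted p = 0.00724), with HRAS at -0.94 (adjusted p = 0.00127). In ErbB2 against Cas limma called 0 of 15, and at an unadjusted p under 0.05 there were 3 higher and 1 lower.

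Of 22 transcription factors and early genes induced by ERK 17 were tested. Against control 14 were higher in Cas/ErbB2, 10 in ErbB2 and 4 in Cas cells, with medians of 1.08, 0.82 and 0.34, although under median scaling over all probes 9, 10 and 17 were lower, with medians 0.99, 0.61 and 0.25 above that of all items. With quantile normalization 0 were called lower, and at an unadjusted p under 0.05 0 were lower in Cas/ErbB2 and ErbB2 and 1 in Cas cells. In Cas/ErbB2 11 were higher than in Cas cells and 1, PHLDA1, higher than in ErbB2 cells (0.84, adjusted p = 0.011), and in ErbB2 4 were higher than in Cas cells. PHLDA1 was 2.08 higher in Cas/ErbB2 than in Cas (adjusted p = 2.91e-06), FOS, an AP-1 subunit, 1.28 higher (adjusted p = 4.22e-05), and HBEGF, a ligand of the EGF receptor, 1.29 higher (adjusted p = 0.00218) with 1 of 3 Cas arrays detected. In ErbB2 against Cas PHLDA1, FOS and HBEGF gave 1.24, 0.86 and 1.31 (adjusted p = 0.000886, 0.00406 and 0.00901). The interaction was called by limma for 0 of the 17, with 2 higher and 1 lower at an unadjusted p under 0.05.

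The genes whose signal most resembled 3 of the members over the 12 arrays were found among 6551 named genes, as a description without a test, since the arrays fall into 4 groups. With DUSP6 the highest Pearson's r were those of LYAR (0.976), F3 (0.976) and IER3 (0.973). With SPRY4 they were BHLHE40 (0.995), ITGB5 (0.995) and PHLDA1 (0.993), and with SPRED1 ETV5 (0.975), LPXN (0.973) and CDR2 (0.959).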

How the data were processed

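RNA was prepared with trizol and labelled with biotin for Illumina Ref-8v2 BeadChips, per the labels. That design holds fewer probes than the 47224 in the table, so which chip was used is not settled here. Per the file headers, the deposited table gives each probe's average bead signal per array, a linear intensity with no background subtracted and no normalization, and its detection p-value. The software that made them is not given in the sources. A second table of the authors holds intensities that were quantile normalized, as a comparison with the signals showed. It was used as an alternative. No column was left unused.

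Signals were corrected with neqc (limma 3.58.1, R 4.3.3, offset 16, background from the detection p-values), quantile normalized and log2 transformed. Probes with 1 gene symbol numbered 30111, those with several 8 and those with none 17105, and 30072 were updated by gene ID. A linear model with 4 group means over 12 arrays was fitted with limma's empirical Bayes moderation, with Benjamini-Hochberg adjustment per comparison over all items. In a simulation of ErbB2 against control with 16171 items and 200 changes, 18% of changes of 0.5, 76% of 1 and 98% of 2 and of 3 on the log2 scale were recovered, with 6 false among 151 calls. In the data a far larger share, 30.6% of items, was called in this comparison. The threshold set by the adjustment depends on that share, so the simulated rates need not hold for the data. All members were named. Up to 3 called genes per list and comparison were named, by largest change. The members and lists were chosen with earlier results of these data known. Genes most like a member were ranked by Pearson's r, for 1 member of each family.

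Samples were grouped by title. Over 18 pairs of arrays with the same replicate number, the correlation of deviations from group means was -0.088 to 0.194 (median 0.078), and 7 exceeded 0.1. Pairs with different numbers from different groups gave -0.236 to 0.095 (median -0.02). Same-numbered arrays were thus somewhat more alike. The main fit did not use the numbers as pairs, and a block by number was an alternative only. Alternatives were other background corrections (normexp with offset 50, or none), 2 median scalings, the authors' intensities, other detection filters, single probes, fewer arrays in the fit, the replicate number as a block and leaving out each array. Python 3.11.15 with matplotlib 3.10.9 drew the figures.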

Additional observations from a re-analysis of the deposited data

Results flagged for a closer look

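The difference that goes with Cas was not the same in groups titled with and without ErbB2 for 3 members, by the interaction term of the limma fit (Benjamini-Hochberg over 16171 items). For SPRY2 the term was 1.08 ± 0.18 (adjusted p = 0.00145), for DUSP1 0.86 ± 0.15 (adjusted p = 0.00267) and for DUSP6 -1.31 ± 0.19 (adjusted p = 0.000637). The control arrays, the only ones with a hybridization number in their names, enter all 3. The second DUSP6 probe gave -0.07 (adjusted p = 0.895). The part of hybridization was not tested.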

How the results depend on the processing

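The counts of called members stayed within 1.5 times the count with the settings used above for 144 pairs of a setting and a comparison, and not for 12. For ErbB2 against Cas (1 member called) the count was 2 with normexp, without background correction and with single probes, 3 with the authors' intensities, 4 with only probes detected on all 12 arrays, and 1 to 4 when each array was left out, 4 without Cas/ErbB2 replicate 3. Of all items 1.61%, 1.87%, 1.38%, 1.95% and 3.03% were called in these settings, in that order. The share was 0.761% to 2.5% when each array was left out. Median scaling over all probes gave 8 called, all lower, in Cas against control (otherwise 4), 0 in Cas/ErbB2 against ErbB2 (otherwise 3), 3 in Cas/ErbB2 against Cas (otherwise 5) and 6 for the interaction (otherwise 3), where single probes gave 5. Of all items this scaling called 84% in Cas against control, with 93.5% of these calls lower. It called 0.223%, 2.44% and 74% of all items in the other 3, in the same order. Single probes gave 15.9% for the interaction. The 5 members called with them include SPRY4 through ILMN_1797596, whose interaction cannot be read with no Cas array detected. Cas/ErbB2 against ErbB2 had 1 member called with only its 6 arrays, where 0.26% of all items were called.

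Under median scaling over all probes, where the median of all items was -1.45 in ErbB2 and -1.66 in Cas cells and -1.61 in Cas/ErbB2 cells against control, these signs turned. In ErbB2 against control they were DUSP5 (-0.37), IL17RD (-0.99), SPRED1 (-0.90), SPRY1 (-0.65) and SPRY2 (-1.27). In Cas against control they were DUSP5 (-1.21), DUSP6 (-0.21), IL17RD (-1.41), SPRED1 (-1.64), SPRY1 (-0.81) and SPRY4 (-1.07). In Cas/ErbB2 against control they were IL17RD (-1.47), SPRED1 (-0.99), SPRY1 (-0.77) and SPRY2 (-0.45). For the interaction, with the median at 1.42, DUSP6 became 0.26, SPRED1 1.55, SPRY1 0.69 and IL17RD 0.93. Signs of differences that did not pass also turned for SPRED1 (-0.09) and SPRED2 (0.07) in Cas/ErbB2 against ErbB2, SPRY1 (0.04) in Cas/ErbB2 against Cas, and DUSP1 (0.07) and SPRY1 (0.16) in ErbB2 against Cas. With single probes SPRY4 ILMN_1797596 was -0.27 in Cas against control and SPRY4 ILMN_1688811 -0.29 in ErbB2 against Cas. The first was detected on 0 of 3 Cas arrays and the second on 0 of 3 ErbB2 and 1 of 3 Cas arrays, so both differences lie within background. Fewer probes were detected on the other 9 arrays than on control arrays, and the cause of the turned signs was not tested.

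Median scaling over the probes detected on all 12 arrays was chosen after seeing the data. It kept the sign of every called member, but moved the share of lower calls among all called items from 53.9%, 54.9% and 54.6% with quantile normalization to 27.7%, 26.2% and 23% for Cas/ErbB2, ErbB2 and Cas against control. With the replicate number as a block, 7, 8 and 6 members were called in the same order and 4 for the interaction, as IL17RD passed in each (adjusted p = 0.0295, 0.00465, 0.0261 and 0.0302). Of all items 47%, 31.6% and 30.2% were called under the block in that order, and 14.9% for the interaction. SPRY1 passed under the block in ErbB2 (0.0451) and Cas cells (0.0437), and the block changed no other call. Of 12 arrays 8 correlated best with an array of their own number, a hint from the data only.

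Signal over background limits DUSP4, SPRED2, SPRY1 and the dim SPRY4 and IL17RD probes. Leaving out each array gave 6 to 7 called for Cas/ErbB2, 5 to 7 for ErbB2 and 4 to 6 for Cas against control, 3 for Cas/ErbB2 against ErbB2, 4 to 5 for Cas/ErbB2 against Cas and 3 for the interaction. Of all items 36.5% to 50.7%, 21.4% to 37% and 20% to 35.1% were called against control. For the last 3 the shares were 1.11% to 10.7%, 7.05% to 15.3% and 10.1% to 16.2%, in the same order.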
